A study of Rattus norvegicus with 24 samples.

Results

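A set of 6 genes that the proximal tubule uses at its brush border was followed in the kidneys of rats on low or high salt. They are the peptidases Anpep, Mme, Dpp4 and Ggt1, the endocytic receptor Lrp2 and the peptide transporter Slc15a2, and they were selected by gene symbol, 6 genes of 1422 with a measured probe and a single symbol. The array annotation lists 12 probe identifiers for them, of which 6 carried values, 1 per gene.

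The study compared 2 strains. One is the Dahl salt-sensitive rat (SS), an inbred model of hypertension. The other is SS-13BN/Mcw, a consomic strain in which chromosome 13 of the Brown Norway rat replaces that of SS on the same background. Each of the 24 two-colour cDNA arrays held the total RNA of 2 rats of 1 strain, with 1 rat on low and 1 on high salt as the titles are read here (LS vs HS). Which of the 2 rats was on which salt is not stated rat by rat. The 4 groups were SS overnight, SS at 3 days, SS-13BN/Mcw overnight and SS-13BN/Mcw at 3 days, each with 3 rat pairs hybridised in both dye orientations. The low-numbered rats 1 to 3 of a strain appear in the titles of both times, so the overnight and the 3-day group of a strain share them. The sources used here do not give age, sex, the salt content of the diets or the part of the kidney. The values are ratios and hold no level, so the tissue could not be checked by the abundance of its markers. None of the 6 genes lies on chromosome 13 in the RefSeq annotation of GRCr8.

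The brush border is the dense layer of microvilli on the luminal side of the proximal tubule cell, where filtered peptides, proteins and solutes are taken back. Peptidases anchored there cut filtered peptides and glutathione into amino acids and small peptides, transporters carry the products into the cell, and megalin takes up filtered proteins by endocytosis. The same enzymes inactivate or trim peptide hormones, among them angiotensins, kinins and natriuretic peptides, which act on blood pressure and salt handling.

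The sequences before the transcription start are shown for Anpep and Dpp4 because these were the 2 of the 6 members whose 250 bases upstream held a match to the half-site core of HNF1, a transcription factor of proximal tubule and liver. The core searched was GTTAA on both strands. It was found in 22.2 percent of 33469 RefSeq promoters in a window of the same length. Capitals mark that core and the TATA box core TATAA, which was in 24.0 percent of those promoters. In build GRCr8 the Anpep stretch is chr1:143195102-143195351 on the minus strand, with the HNF1 core beginning 98 bases and the TATA core 53 bases before the start. That of Dpp4 is chr3:67452423-67452672, also on the minus strand, with cores beginning 222 bases before the start and, on the opposite strand, 47 bases before it. The 2 cores do not overlap in the Anpep stretch, and TATAA is not in that of Dpp4. The motifs were chosen after the sequences were seen, and a match is a description of these letters only. The stretches are printed from 5′ to 3′ on the strand of the gene, as RefSeq gives them.
Anpep: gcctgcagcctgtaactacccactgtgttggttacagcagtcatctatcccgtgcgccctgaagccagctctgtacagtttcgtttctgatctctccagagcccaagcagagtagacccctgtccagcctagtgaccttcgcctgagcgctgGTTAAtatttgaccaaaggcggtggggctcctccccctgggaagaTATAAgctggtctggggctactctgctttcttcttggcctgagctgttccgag
Dpp4: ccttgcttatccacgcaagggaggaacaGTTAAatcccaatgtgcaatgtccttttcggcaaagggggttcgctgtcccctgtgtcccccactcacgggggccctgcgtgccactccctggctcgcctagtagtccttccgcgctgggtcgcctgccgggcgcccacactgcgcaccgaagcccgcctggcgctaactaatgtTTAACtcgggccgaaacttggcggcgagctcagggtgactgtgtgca

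Mme, Ggt1, Lrp2 and Slc15a2 held neither of these 2 cores in the same window. The GC box core GGGCGG, searched on both strands and found in 30.5 percent of promoters, occurred 2 times each in Mme and Lrp2 and in no other member. The HNF4 half-site core CAAAG, in 48.2 percent, occurred 1 time each in Anpep, Dpp4, Lrp2 and Slc15a2. The GC content of the window ran from 45.6 percent in Slc15a2 to 70.4 percent in Mme, beside a median of 51.2 percent over all promoters. The arrays hold no measurement of these promoters.

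All values below are log ratios in the unit of the deposited table after each array was centred on its median, averaged over both dye orientations of a pair. Its log base and its numerator are not stated, so no fold is given, and a gene is placed on the positive or on the negative side with no direction in terms of salt. Arrays of a pair were taken to have been turned to 1 rat-to-rat direction already, since both arrays of a pair were alike in 12 of 12 pairs after subtraction of each orientation's mean per probe, with r between 0.301 and 0.893 across 701 probes, which are not independent replicates. Without that subtraction the correlations lay between -0.113 and 0.738, 4 of them negative, so every sign given here rests on this reading of the table. An array held values for 877 to 1412 probes, and precision is limited by the 3 rat pairs of each group. Means of a group are given ± SD over rat pairs. For a fitted difference or a mean over groups ± is the standard error (SE). Adjusted p-values are from limma over all tested probes, and a gene passed the test where its adjusted p was below 0.05. The fit shares 1 spread over the 4 groups, so a group's own SD is not the spread behind its adjusted p.

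**Figure D1:**
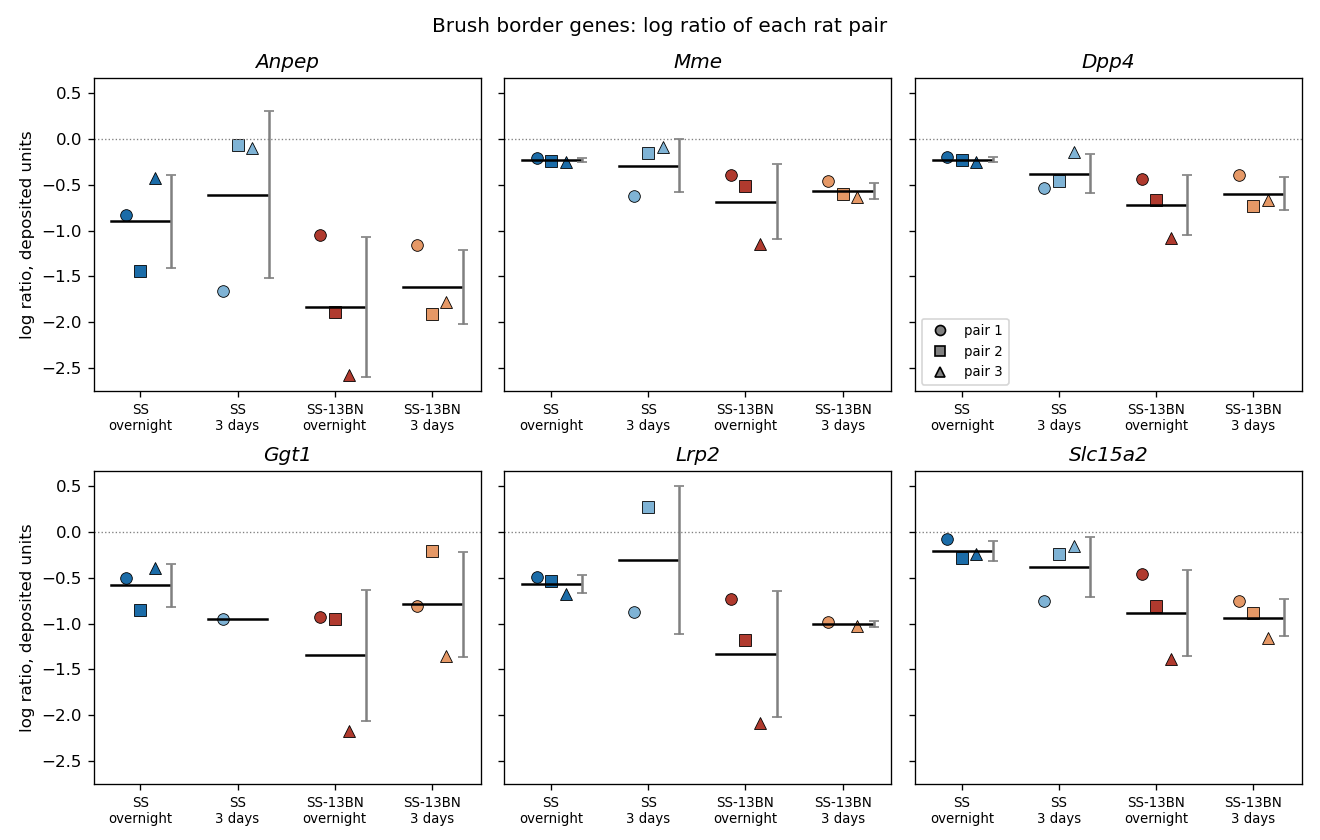
Log ratio of each rat pair (y axis, deposited units) for Anpep, Mme, Dpp4, Ggt1, Lrp2 and Slc15a2 in the 4 groups (x axis); circles, squares and triangles are pairs 1, 2 and 3, the black bar is the mean and the grey bar the SD where at least 2 pairs were measured. Of the 68 pair values 67 lie below 0, the exception being Lrp2 in pair 2 of SS at 3 days at 0.27, and pair 3 of SS-13BN/Mcw overnight is the lowest of its group in every panel.

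The members lay on the negative side in both strains and at both times. Of 68 measured pair values 67 were below 0, and of 139 single-array values 132. In SS-13BN/Mcw rats overnight all 6 of 6 members passed the test on the negative side, where 7.36 percent of 1100 tested probes did. At 3 days in the same strain 4 of 6 passed, beside 2.32 percent of 907 probes. In SS rats 0 of 6 passed overnight (0.176 percent of 1139 probes) and 0 of 5 at 3 days (0 percent of 883 probes) in limma, while 3 members at each time had an unadjusted p under 0.05, as had 174 of all probes overnight and 108 at 3 days. A fit of SS overnight alone gave 3 of 6, beside 31 of 1139 probes on either side. One of SS at 3 days alone gave 0 of 5, beside 0 of 883 probes. That of SS-13BN/Mcw overnight alone gave 0 of 6, beside 0 of 1100 probes. The strain difference itself did not pass for any member, as given below.

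Anpep, aminopeptidase N, removes single amino acids from the N-terminus of peptides and was the member farthest from 0 in the mean of each group in which all 6 were tested. In SS-13BN/Mcw overnight its pairs stood at -1.05, -1.89 and -2.57. At 3 days in this strain they stood at -1.16, -1.91 and -1.78. Every SS-13BN/Mcw pair was therefore beyond -1 at both times. The means were -1.84 ± 0.76 (n = 3, adjusted p = 0.00665) and -1.62 ± 0.40 (n = 3, adjusted p = 0.0206), and among all tested probes Anpep was the most negative overnight and rank 2 at 3 days.

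In SS rats the Anpep pairs stood at -0.83, -1.44 and -0.43 overnight. At 3 days they stood at -1.66, -0.068 and -0.10, so a single pair lay far from 0 and the others close to it. Pair values of both strains overlapped at both times. Neither SS mean passed, with -0.90 ± 0.51 overnight (n = 3, adjusted p = 0.175) and -0.61 ± 0.91 at 3 days (n = 3, adjusted p = 0.467). Without pair 1 the 3-day mean was -0.086, so its size rested on that pair.

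Mme, neprilysin, is a zinc endopeptidase that degrades natriuretic peptides and kinins, among others. Its pairs in SS overnight lay close together at -0.21, -0.25 and -0.25. In SS at 3 days they were -0.62, -0.16 and -0.095. The SS-13BN/Mcw pairs overnight were -0.40, -0.51 and -1.15, all below every SS pair of that time. At 3 days they were -0.47, -0.60 and -0.64, a range that overlapped with SS at its pair 1. The SS-13BN/Mcw means of -0.69 ± 0.41 overnight (n = 3, adjusted p = 0.0100) and -0.57 ± 0.092 at 3 days (n = 3, adjusted p = 0.0367) passed. Those of SS, -0.24 ± 0.022 overnight (adjusted p = 0.403) and -0.29 ± 0.29 at 3 days (adjusted p = 0.402), did not. The SE behind the overnight test in SS was 0.13, from the spread shared by the 4 groups.

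Dpp4, dipeptidyl peptidase 4, cuts dipeptides from peptides with proline or alanine in the penultimate position, including neuropeptide Y and the incretins. It was the member with all 24 of its array values below 0 and a value on every array. Its SS pairs overnight lay within -0.20 to -0.25, and at 3 days they stood at -0.54, -0.46 and -0.14. In SS-13BN/Mcw they stood at -0.44, -0.66 and -1.08 overnight and at -0.39, -0.74 and -0.66 at 3 days. The strains did not overlap overnight and did at 3 days. Means in SS-13BN/Mcw of -0.73 ± 0.32 (n = 3, adjusted p = 0.00627) and -0.60 ± 0.18 (n = 3, adjusted p = 0.0202) passed, while those in SS of -0.23 ± 0.023 (adjusted p = 0.355) and -0.38 ± 0.21 (adjusted p = 0.172) did not. With the shared spread the SE in SS overnight was 0.11.

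Ggt1, gamma-glutamyltransferase, starts the breakdown of filtered glutathione and is the member that links the brush border to the gamma-glutamyl cycle. Its SS pairs overnight were -0.51, -0.85 and -0.39. Those of SS-13BN/Mcw overnight were -0.93, -0.95 and -2.17, all lower than the SS pairs, and their mean of -1.35 ± 0.71 passed (n = 3, adjusted p = 0.0107). At 3 days the SS-13BN/Mcw pairs were scattered at -0.81, -0.21 and -1.35, and the mean of -0.79 ± 0.57 did not pass (n = 3, adjusted p = 0.140). In SS at 3 days Ggt1 had both dye orientations in pair 1 alone, at -0.95, so no test was made there.

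Lrp2, megalin, is the large endocytic receptor that retrieves filtered proteins and carrier-bound vitamins. Its pairs in SS overnight were -0.50, -0.54 and -0.68, and in SS-13BN/Mcw overnight -0.73, -1.18 and -2.08. The strains did not overlap, although the nearest pairs lay close to each other. The SS-13BN/Mcw mean of -1.33 ± 0.69 passed (n = 3, adjusted p = 0.0100), and the SS mean of -0.57 ± 0.095 did not (n = 3, adjusted p = 0.272). At 3 days only 2 pairs per strain had both orientations, at -0.98 and -1.03 in SS-13BN/Mcw (adjusted p = 0.115) and at -0.88 and 0.27 in SS (adjusted p = 0.720).

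The positive value of Lrp2 in pair 2 of SS at 3 days came from arrays that disagreed, with 1.15 in one orientation and -0.61 in the other. No other member had its swapped arrays that far apart in any pair. Without that pair the value for SS at 3 days was -0.88, from 1 pair.

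Slc15a2, the high-affinity peptide transporter PEPT2, takes up the dipeptides and tripeptides that the peptidases release. Overnight the SS pairs were -0.084, -0.29 and -0.25 and the SS-13BN/Mcw pairs -0.47, -0.81 and -1.39. At 3 days they were -0.76, -0.25 and -0.15 in SS and -0.76, -0.89 and -1.16 in SS-13BN/Mcw. The strains were apart overnight, and at 3 days the lowest SS pair was level with the highest SS-13BN/Mcw pair. Slc15a2 passed in SS-13BN/Mcw with -0.89 ± 0.47 overnight (n = 3, adjusted p = 0.00665) and -0.93 ± 0.20 at 3 days (n = 3, adjusted p = 0.0146). It did not pass in SS with -0.21 ± 0.11 (adjusted p = 0.521) and -0.39 ± 0.33 (adjusted p = 0.332).

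**Figure D2:**
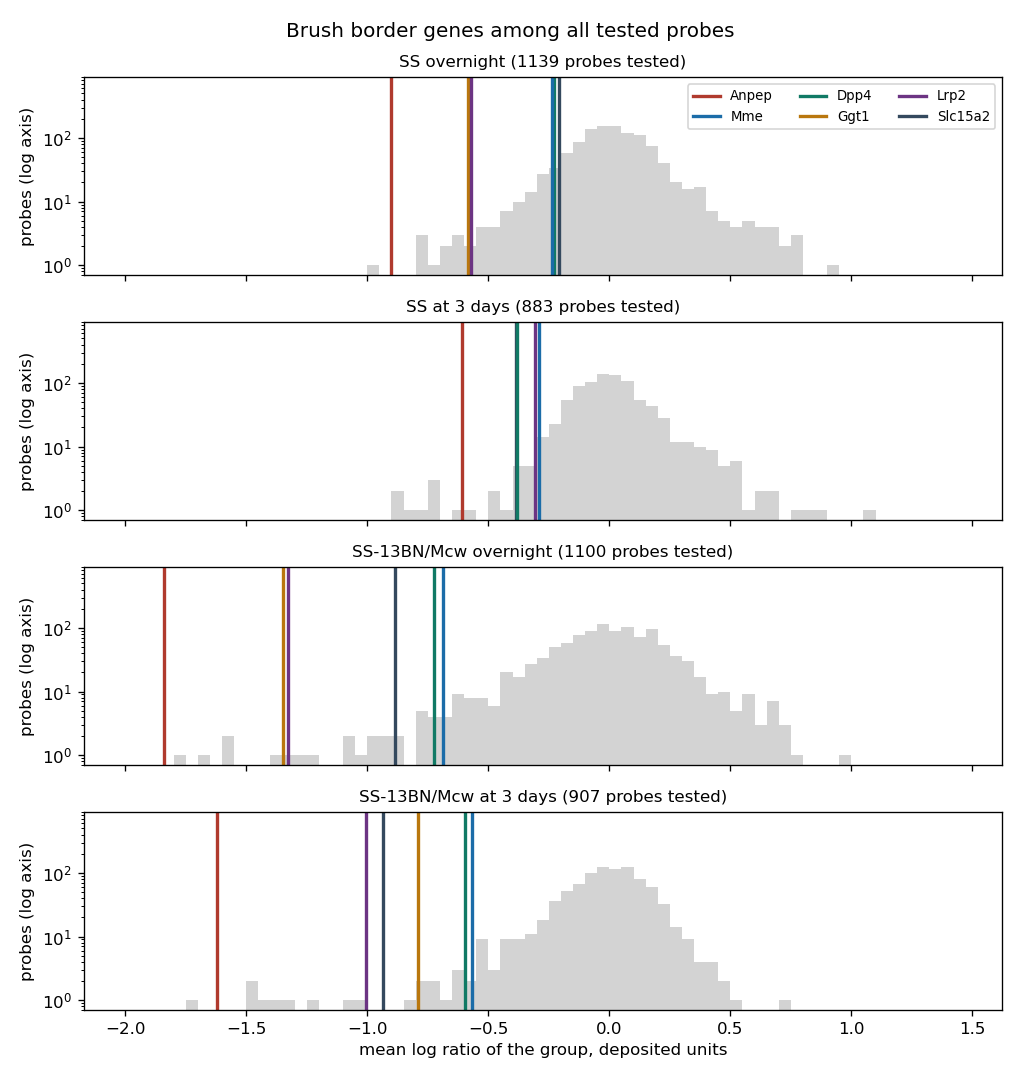
Number of probes (y axis, log scale) by mean log ratio of the group (x axis, deposited units) for all tested probes except the 6 members (grey), in 4 panels by group, with the members as coloured lines. In SS-13BN/Mcw at both times all 6 members lie below the 5th percentile of the tested probes, and Anpep is the farthest of them from 0, at -1.84 overnight and -1.62 at 3 days.

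Against the whole set of tested probes the members stood at the negative end. The median of the 6 was -1.11 in SS-13BN/Mcw overnight, where the median of all 1100 probes was -0.0016 and their 5th percentile -0.55. At 3 days it was -0.86 beside a 5th percentile of -0.40, and 6 of 6 members lay below that percentile at both times. In SS the medians were -0.40 overnight and -0.38 at 3 days, with 3 of 6 and 5 of 5 members below the 5th percentiles of -0.30 and -0.24. Since these are counts over chosen genes, they describe the members and test nothing.

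Averaged over the 4 groups, the 5 members that could be tested all passed on the negative side, where 15.1 percent of 822 probes did. Anpep stood at -1.24 ± 0.16 (SE, adjusted p = 0.00029) and Lrp2 at -0.80 ± 0.13 (SE, adjusted p = 0.00216). Slc15a2 stood at -0.60 ± 0.077 (SE, adjusted p = 0.00029), Dpp4 at -0.48 ± 0.056 (SE, adjusted p = 0.000149) and Mme at -0.45 ± 0.065 (SE, adjusted p = 0.000724). Ggt1 was not tested here for want of pairs in SS at 3 days. These 5 remained past the test in each of the 12 fits that left out 1 pair and with the shared rat as a replicate block. Of 822 probes 171 to 282 passed on either side in those 12 fits, and 174 with the block.

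Over the 4 groups Anpep lay farthest from 0 and Dpp4 and Mme nearest. Anpep had its largest SD in SS at 3 days, and in SS overnight Dpp4 and Mme had SDs of 0.023 and 0.022. Anpep was the lowest member in every SS-13BN/Mcw pair. In SS the lowest was Lrp2 in pair 3 overnight, Dpp4 in pair 2 and Slc15a2 in pair 3 at 3 days, and Anpep in the others. Sizes of different probes are not set against each other beyond this order.

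Whether the strains differed was asked by the contrast SS minus SS-13BN/Mcw. Overnight it was positive for all 6 members, that is, SS lay closer to 0. Slc15a2 differed by 0.68 ± 0.22 (SE, unadjusted p = 0.00833) and Dpp4 by 0.50 ± 0.16 (SE, unadjusted p = 0.00897) in limma. The differences were 0.94 ± 0.45 for Anpep, 0.76 ± 0.35 for Ggt1, 0.76 ± 0.34 for Lrp2 and 0.45 ± 0.18 for Mme (SE each). After adjustment 0 of 6 passed in limma (adjusted p = 0.898 for each), beside 0 percent of 1053 probes, and 4 of 6 members had an unadjusted p under 0.05 where 53 of all probes did. For Dpp4, Mme, Ggt1, Lrp2 and Slc15a2 every SS pair lay above every SS-13BN/Mcw pair overnight, a pattern that 7.69 percent of the tested probes had. Without pair 3 of SS-13BN/Mcw overnight the differences were 0.57 for Anpep, 0.35 for Ggt1, 0.38 for Lrp2, 0.22 for Mme, 0.32 for Dpp4 and 0.43 for Slc15a2, all still positive.

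At 3 days the strain contrast was positive for all 5 members tested. Anpep differed by 1.01 ± 0.45 (SE, 95% interval 0.022 to 2.00) and Slc15a2 by 0.55 ± 0.22 (SE, interval 0.078 to 1.02). For Dpp4 the difference was 0.22 with an interval from -0.13 to 0.57, for Mme 0.28 with one from -0.12 to 0.68 and for Lrp2 0.70 with one from -0.22 to 1.62. After adjustment 0 of 5 passed in limma (adjusted p from 0.528 to 0.668), again beside 0 percent of 824 probes, of which 69 had an unadjusted p under 0.05. Lrp2 alone had its strains apart in all measured pairs, 2 against 2, as had 8.37 percent of probes. Its difference was 0.13 without pair 2 of SS and 1.27 without pair 1 of SS. Without pair 1 of SS that of Anpep was 1.53 and that of Mme 0.44, and without pair 3 of SS that of Dpp4 was 0.098 and that of Mme 0.18. The calls in SS-13BN/Mcw and their absence in SS are thus not shown to differ between the strains. Slide numbers in the titles put SS before SS-13BN/Mcw overnight and after it at 3 days, with no overlap, so that within each time slide order and strain cannot be told apart.

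**Figure D3:**
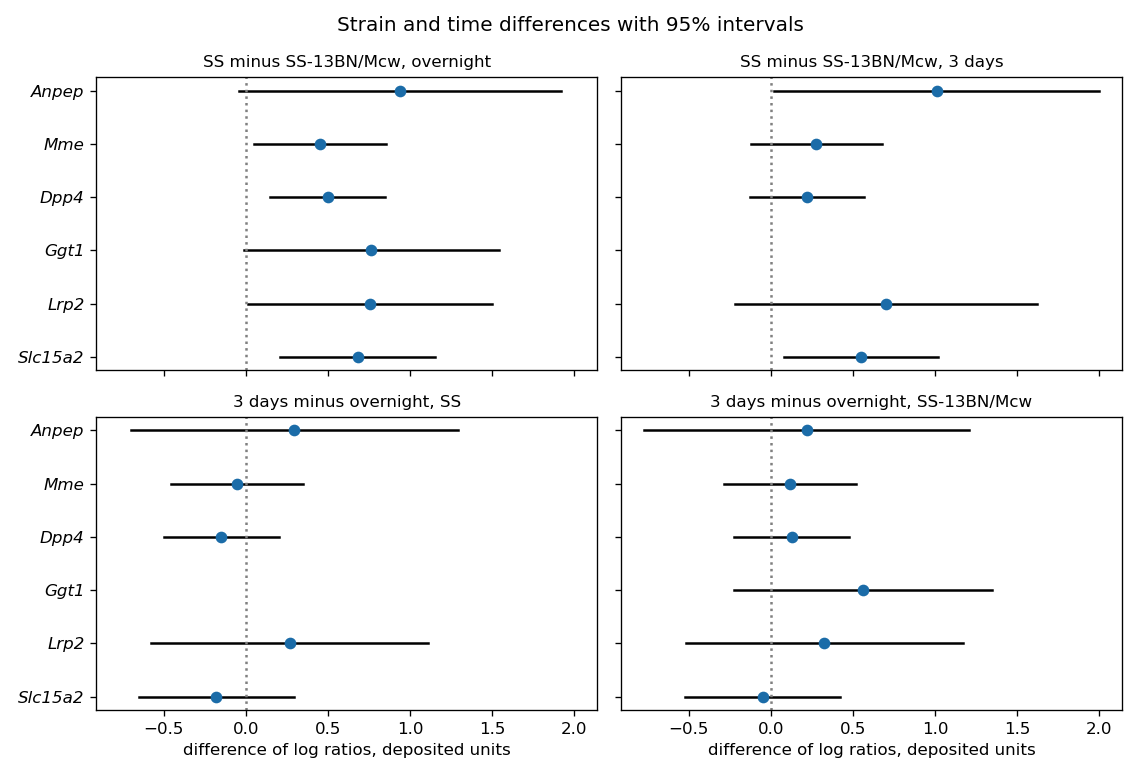
Difference of log ratios (x axis, deposited units) with its 95% interval from limma for each member (y axis), for the strain contrast at both times (top) and the time contrast in both strains (bottom). The strain contrasts are positive for every member drawn and the time contrasts lie on both sides of 0; Ggt1 is missing where SS at 3 days was needed, and no contrast passed after adjustment.

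The contrast of 3 days minus overnight lay closer to 0 for each member than its overnight strain contrast, a comparison that was not tested. In SS-13BN/Mcw it was 0.22 for Anpep (95% interval -0.77 to 1.21), 0.13 for Dpp4 (-0.22 to 0.48) and 0.12 for Mme (-0.28 to 0.52). The largest was that of Ggt1 at 0.56 (-0.23 to 1.35), and for Lrp2 it was 0.32 (-0.52 to 1.17) and for Slc15a2 -0.049 (-0.52 to 0.42). In SS it was 0.29 for Anpep, -0.15 for Dpp4, -0.056 for Mme, 0.27 for Lrp2 and -0.18 for Slc15a2. By limma 0 of 6 and 0 of 5 members passed, beside 0 percent of 897 and of 880 probes, and no member had an unadjusted p under 0.05, while 101 and 17 probes did. The intervals are wide, and for Anpep in SS the interval ran from -0.70 to 1.29.

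Pairs of a group differed together over the members. In SS-13BN/Mcw overnight the mean of the 4 members measured everywhere was -0.59, -0.97 and -1.55 in pairs 1, 2 and 3, and each of the 6 members was lowest in pair 3. In SS at 3 days it was -0.90, -0.23 and -0.12, with pair 1 the lowest for every member that had other pairs. In SS overnight it was -0.33, -0.55 and -0.29, and in SS-13BN/Mcw at 3 days -0.70, -1.04 and -1.06.

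The spread of all probes moved with these values. Its SD over probes was 0.485 in pair 3 of SS-13BN/Mcw overnight and 0.359 in pair 1 of SS at 3 days, the highest of the 12 pairs, whose lowest was 0.197. With arrays scaled to 1 spread the mean of the 4 members in pair 3 of SS-13BN/Mcw overnight was -1.13, beside -1.01 in pair 2. All 6 members still passed in that group after scaling, beside 136 of 1100 probes on either side, with Anpep at -1.63 and Dpp4 at -0.67. Without pair 3 the group's means ran from -0.45 for Mme to -1.47 for Anpep and 1 of 6 passed, Dpp4 at -0.55 (adjusted p = 0.0433), with the other adjusted p-values from 0.0620 to 0.0686. Of all 1100 probes 12 passed without that pair, 8 of them on the negative side.

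The calls in SS-13BN/Mcw at 3 days also rested on the number of pairs. They numbered 2 without pair 1, Dpp4 and Slc15a2, and 0 without pair 2 or pair 3 in limma, while each mean kept its sign. Of all 907 probes 12 passed without pair 1 and 0 without pair 2 or pair 3. A fit of SS-13BN/Mcw at 3 days alone gave 5 of 6, beside 30 of 907 probes on either side. One of SS-13BN/Mcw overnight alone gave 0 of 6 (adjusted p from 0.0558 to 0.0865), beside 0 of 1100 probes. Both had the same means as before. With arrays scaled to 1 spread, quantile normalized or fitted singly, Ggt1 and Lrp2 also passed in SS-13BN/Mcw at 3 days, which made 6 of 6. Among 907 probes these settings called 61, 64 and 58 on either side.

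**Figure D4:**
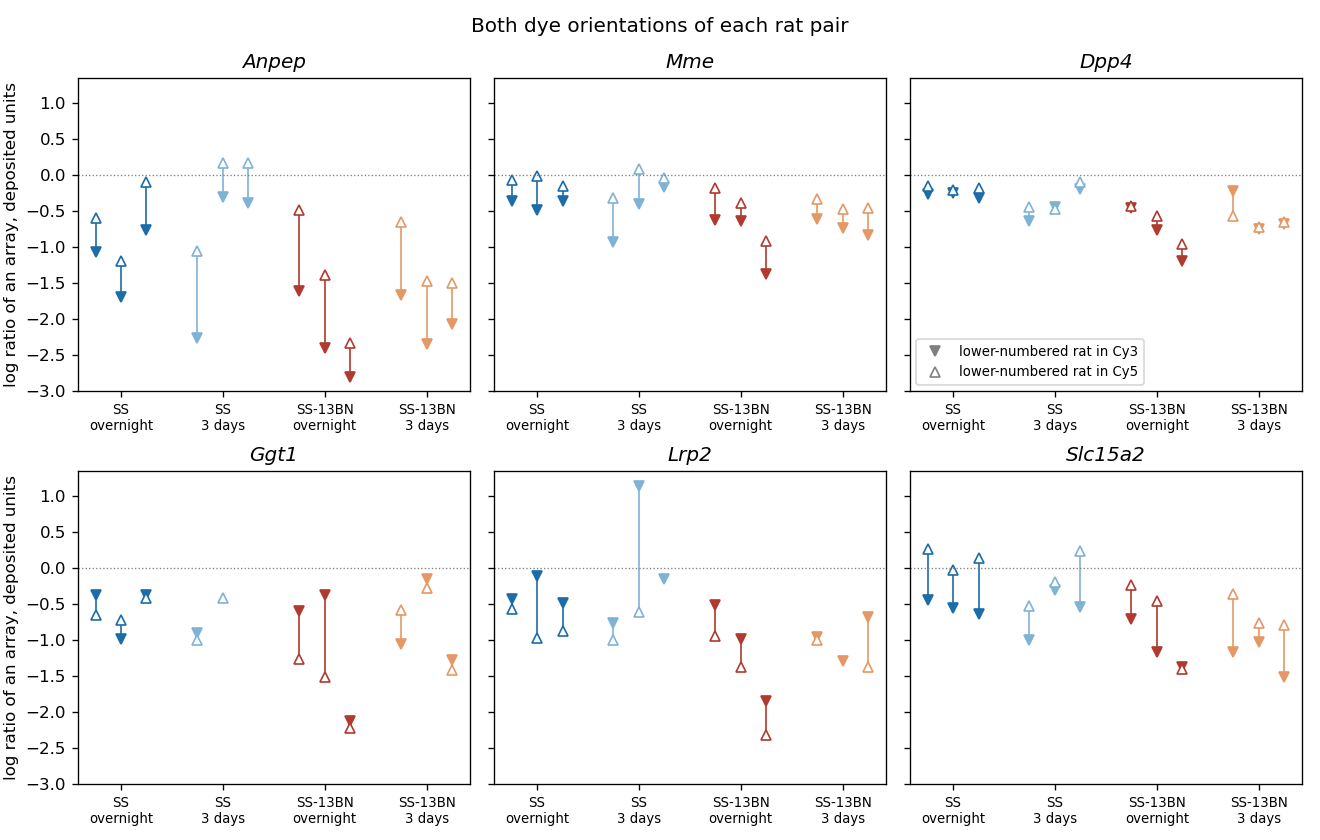
Log ratio of each single array (y axis, deposited units, median-centred) for the 6 members, with pairs 1 to 3 of each group from left to right (x axis); filled triangles have the lower-numbered rat in Cy3, open triangles in Cy5, and a line joins both arrays of a pair. Anpep and Mme are lower with the lower-numbered rat in Cy3 in 12 of 12 pairs, Lrp2 is higher in 10 of 10, and for Dpp4 both orientations lie close together.

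Anpep, Slc15a2, Mme and Lrp2 differed between the dye orientations by more than the SD over pairs, and Dpp4 and Ggt1 by less. No test was made of this. With the lower-numbered rat in Cy3 the arrays read lower by 0.75 ± 0.28 for Anpep, by 0.53 ± 0.28 for Slc15a2 and by 0.36 ± 0.14 for Mme than with that rat in Cy5 (SD, n = 12 pairs). For Dpp4 the gap was 0.059 ± 0.15 in the same sense. For Lrp2 it had the opposite sign, 0.54 ± 0.49 (n = 10), and likewise for Ggt1, 0.18 ± 0.45 (n = 10). In either orientation alone the mean of every member was below 0, from -0.51 for Dpp4 to -1.62 for Anpep with the lower-numbered rat in Cy3, and from -0.27 for Mme to -1.10 for Lrp2 in the other.

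Other genes of the brush border did not all share this pattern. Of 21 further brush border peptidases and enzymes 5 had a measured probe and 3 could be tested in SS-13BN/Mcw overnight, all negative, with 1 past the test. That was Alpl, tissue-nonspecific alkaline phosphatase, at -1.0 ± 0.23 (SE, adjusted p = 0.0226). The meprin subunit Mep1b stood at -0.27 ± 0.097 (SE, adjusted p = 0.0966) and the ecto-nucleotidase Nt5e at -0.097 ± 0.12 (SE, adjusted p = 0.595). At 3 days in this strain Alpl stood at -0.55 ± 0.23 (SE, adjusted p = 0.258). Mep1b and Nt5e had values of 0.13 (adjusted p = 0.527) and 0.17 (adjusted p = 0.479), and none of these passed.

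Genes of the endocytic apparatus of megalin and its ligands did not pass in SS-13BN/Mcw overnight. Of 24 listed 9 were tested there, 7 negative and 0 past the test in limma, with a median of -0.087. Cubilin (Cubn), the receptor that works with megalin, stood at -0.30 ± 0.12 (SE, adjusted p = 0.147) and the adaptor Dab2 at -0.29 ± 0.097 (SE, adjusted p = 0.0775). Over the 4 groups Dab2 passed at -0.15 ± 0.047 (SE, adjusted p = 0.0383). Cst3, cystatin C, a filtered ligand, stood at 0.16 ± 0.059 over the 4 groups (SE, adjusted p = 0.0554). Gc, the vitamin D binding protein, another ligand, stood on the other side at -0.63 ± 0.24 in SS-13BN/Mcw overnight (SE, adjusted p = 0.13) and at -0.56 ± 0.29 at 3 days (SE, adjusted p = 0.396). Cubn and Gc were named after their values were seen.

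Brush border transporters and scaffold proteins had few measured genes. In SS-13BN/Mcw overnight 2 of 3 transporters were negative and 0 of 3 passed in limma. The carnitine transporter Slc22a5 stood at -0.28 ± 0.094 (SE, adjusted p = 0.0866) and Slc17a1 at -0.46 ± 0.19 (SE, adjusted p = 0.171). The water channel Aqp1 passed on the positive side over the 4 groups at 0.11 ± 0.031 (SE, adjusted p = 0.0217). Of 6 scaffold and cytoskeleton genes 4 were negative in SS-13BN/Mcw overnight and none of these passed. Ezrin (Ezr), which ties microvillar membrane to actin, stood at -0.24 ± 0.10 (SE, adjusted p = 0.137) and Pdzk1 at -0.40 ± 0.15 (SE, adjusted p = 0.147). The lectin Lgals3 of that list passed on the positive side at 0.37 ± 0.073 (SE, adjusted p = 0.0107). Slc17a1 and Pdzk1 were named after their values were seen. Of 4 basolateral transporters and carriers 3 were tested, and Slc25a10 passed at -0.68 ± 0.16 (SE, adjusted p = 0.0203), a dicarboxylate carrier that is in fact mitochondrial.

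The gamma-glutamyl cycle, to which Ggt1 belongs, was listed together with the glutathione peroxidases Gpx1 and Gpx4. That list had 5 measured genes, all negative in SS-13BN/Mcw overnight with a median of -0.53. Gclm, the modifier subunit of the enzyme that limits glutathione synthesis, stood at -0.69 ± 0.17 (SE, adjusted p = 0.0317). Gss, glutathione synthetase, stood at -0.53 ± 0.13 (SE, adjusted p = 0.0262) and the peroxidase Gpx4 at -0.43 ± 0.10 (SE, adjusted p = 0.0207), and these 3 passed. Oplah, 5-oxoprolinase, at -0.70 ± 0.23 did not (SE, adjusted p = 0.0733), but passed over the 4 groups at -0.54 ± 0.12 (SE, adjusted p = 0.00542). In SS 0 of 5 passed at either time in limma, with medians of -0.086 and -0.080.

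Peptide substrates of these enzymes and the receptors of such peptides were represented by 4 measured genes. Agt, angiotensinogen, which proximal tubule cells also make, passed in SS-13BN/Mcw overnight at -0.72 ± 0.19 (SE, adjusted p = 0.0419). Penk, the enkephalin precursor, whose peptides Mme and Anpep cut, passed there on the positive side at 0.31 ± 0.070 (SE, adjusted p = 0.0203) and over the 4 groups at 0.21 ± 0.037 (SE, adjusted p = 0.00318). Npr2, a natriuretic peptide receptor, stood at 0.10 ± 0.055 over the 4 groups (SE, adjusted p = 0.176).

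**Figure D5:**
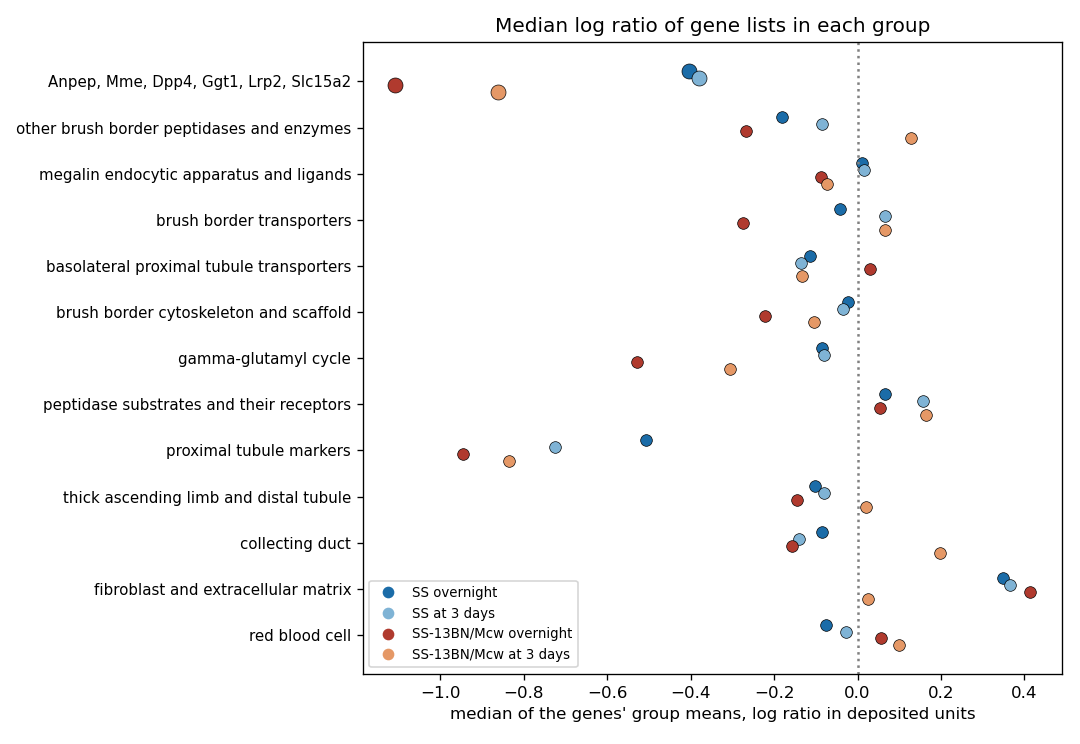
Median over genes of the group mean (x axis, log ratio in deposited units) for the members and for each gene list with at least 2 tested genes in every group (y axis), with 1 point per group. The members and the proximal tubule markers lie farthest on the negative side, to -1.11 and -0.95 in SS-13BN/Mcw overnight, and the fibroblast and matrix list lies on the positive side at 0.41 in that group and 0.026 in SS-13BN/Mcw at 3 days.

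Other markers of the proximal tubule were largely on the same side as the members. Of 17 measured proximal tubule markers outside the brush border 16 were tested in SS-13BN/Mcw overnight, 15 negative and 12 past the test, with a median of -0.95. Gsta2, a glutathione transferase, stood at -1.55 ± 0.26 (SE, adjusted p = 0.00627) and Hpd, of tyrosine breakdown, at -0.78 ± 0.094 (SE, adjusted p = 0.00241). In SS overnight 13 of 14 were negative and 1 passed, Hpd, and their median was -0.51. At 3 days 8 of 8 were negative in SS with 0 past the test in limma, and 12 of 13 in SS-13BN/Mcw with 5 past it. The pair medians of these markers in SS-13BN/Mcw overnight were -0.76, -1.01 and -1.57, lowest in the pair where the members were lowest. In SS at 3 days they were -0.95, -0.48 and -0.28, again lowest with the members. In SS overnight they were -0.53, -0.44 and -0.45, lowest in pair 1 where the members were lowest in pair 2. In SS-13BN/Mcw at 3 days they were -0.30, -1.15 and -0.97, lowest in pair 2. There the members were nearly level in pairs 2 and 3, at -1.04 and -1.06. With arrays scaled to 1 spread the members stood at -1.16 and -1.04 in these pairs, while the marker medians given here are unscaled. Each pair median of the markers was taken over the genes measured in that pair, 8 to 16 genes, so pairs do not hold the same genes. In bulk RNA a difference in the share of proximal tubule cells and one in these transcripts per cell cannot be told apart.

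Fibroblast and matrix genes were mostly on the positive side. In SS-13BN/Mcw overnight 16 of 16 were positive and 4 passed, where 35 of 1100 probes passed on that side, with a median of 0.41, and the collagen chaperone Serpinh1 stood at 0.54 ± 0.098 (SE, adjusted p = 0.00967). Their pair medians in that group were 0.25, 0.20 and 0.72, the last in the pair where the members were lowest. In SS at 3 days they were 0.71, 0.35 and 0.091, the first in the pair where the members were lowest. In SS overnight they were 0.45, 0.35 and 0.17, highest in pair 1 where the members were lowest in pair 2. These pair medians too were taken over the genes measured in each pair, 12 to 17 genes. In SS 3 of 17 matrix genes passed on the positive side overnight, beside 11 of 1139 probes, and 1 of 13 at 3 days, beside 3 of 883. In SS-13BN/Mcw at 3 days, however, the members stood at -0.86 in the median while the 15 matrix genes had a median of 0.026 and 0 passed in limma.

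Medians of later nephron markers lay nearer to 0 than those of the members in every group. In SS overnight 6 of 7 thick ascending limb and distal tubule genes and 6 of 6 collecting duct genes were negative. At 3 days in SS 6 of 7 and 4 of 5 were negative, and 0 passed at either time in limma. Thick ascending limb and distal tubule genes had a median of -0.14 in SS-13BN/Mcw overnight, with the cotransporter Slc12a1 past the test at -0.33 ± 0.081 (SE, adjusted p = 0.0239), and collecting duct genes one of -0.16 with 0 of 6 past it in limma. At 3 days in this strain these medians were 0.019 and 0.20, with the sodium pump subunit Atp1b1 (0.41 ± 0.091, SE, adjusted p = 0.0351) and the sodium channel subunit Scnn1a (0.28 ± 0.062, SE, adjusted p = 0.0293) past the test on the positive side. St6gal1 of the collecting duct list stood on the other side there at -0.48 ± 0.14 (SE, adjusted p = 0.115). Over the 4 groups St6gal1 passed at -0.24 ± 0.072 (SE, adjusted p = 0.024). Slc12a1 (-0.24 ± 0.0396, SE, adjusted p = 0.00124) and Ppp1r1a (-0.21 ± 0.0399, SE, adjusted p = 0.00295) also passed there, and Atp1b1 (0.28 ± 0.045, SE, adjusted p = 0.00124) on the positive side. Endothelial genes were 2. Kdr, a receptor of VEGF, stood at -0.018 in SS overnight (adjusted p = 0.944) and at 0.14 in SS-13BN/Mcw overnight (adjusted p = 0.401) in limma. The adhesion molecule Vcam1, named after its value was seen, passed on the positive side overnight in SS at 0.59 ± 0.11 (SE, adjusted p = 0.0316) and in SS-13BN/Mcw at 0.52 ± 0.11 (SE, adjusted p = 0.0191), and stood at 0.096 in SS at 3 days (adjusted p = 0.824). Of the immune list 1 gene was tested in SS and 0 in SS-13BN/Mcw, and of the glomerular list 0. Red blood cell genes were 2, with medians between -0.075 and 0.099. The part of any other cell type in the members' values was not tested.

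The measured genes whose 12 pair values lay nearest to those of the members were picked by the root mean square difference from the mean of Anpep, Dpp4, Mme and Slc15a2, among 594 other named probes with a value in every pair. The nearest was Amacr, a racemase of branched fatty acid and bile acid metabolism, at 0.234. It was followed by the aldehyde reductase Akr7a3 at 0.268, the biliverdin reductase Blvra at 0.279 and the ornithine aminotransferase Oat at 0.294. Oplah at 0.370 and Slc25a10 at 0.408 came next, and the median over all candidates was 0.824. Measured the same way against the mean of the other 3, Slc15a2 lay at 0.194, Dpp4 at 0.380, Mme at 0.386 and Anpep, because of its larger values, at 0.886. These distances are a description, and pairs of a strain share low-numbered rats.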

How the data were processed

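Total RNA of rat kidney was measured on 24 cDNA arrays labelled with Cy5 and Cy3, per the labels. The authors deposited 1 log ratio per probe and array, while log base, numerator and earlier steps are not stated there. Deposited array means were within 0.00082 of 0 and medians within 0.067. Of 3742 probe identifiers 1766 had a value, 1426 of them with 1 symbol, of which 1421 were matched by gene number to RefSeq GRCr8.

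Arrays were median-centred, and a pair's value is the mean of its 2 orientations, both required. The fit was limma 3.58.1 in R 4.3.3 with 1 coefficient per group over 12 pairs, eBayes moderation and two-sided p-values, adjusted by Benjamini-Hochberg over all probes with at least 2 of 3 pairs in each group compared; it was checked on simulated data. Blocks used statmod 1.5.0, figures Python 3.11.15 and matplotlib 3.10.9. The labels name rats, and the spread that p-values measure is that between pairs of rats. Since the titles repeat rats 1 to 3 of a strain at both times, pairs are linked. Deviations from the group means of same-numbered pairs correlated at 0.0592 to 0.646. A fit with that rat as a replicate block (correlation 0.285) changed the call of no member.

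Members, lists and motifs were chosen with earlier results of these data known. All 6 members were named, from each list up to 3 genes with the smallest p over the 4 groups, and the 6 probes most alike. Alpl, Cubn, Gc, Slc17a1, Pdzk1, Gclm, Agt and Vcam1 were added after their values were seen. Of several probes of a listed gene the most complete was used. Alternatives were centring, scaling, quantile normalization, turning by dye, an array-level fit, a stricter filter, fewer groups, averaged probes and leaving out each pair.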

Additional observations from a re-analysis of the deposited data

How the results depend on the processing

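Counts of members past the test are given first. In SS overnight 0 passed, against 2 with arrays scaled to 1 spread, 3 after quantile normalization, 3 with arrays turned by dye, 1 in an array-level fit and 3 in a fit of that group alone. Over all 1139 probes these settings called 51, 65, 325, 45 and 31, in the same order and on either side. In SS at 3 days 0 passed, against 1 after quantile normalization, 4 with arrays turned by dye and 1 in an array-level fit. Here 16, 344 and 36 of 883 probes passed, in the same order. In SS-13BN/Mcw overnight 6 passed, against 3 with arrays turned by dye, 0 in a fit of that group alone, and 1 to 6 when 1 pair was left out, the 1 being without pair 3. The counts over 1100 probes were 309, 0 and 12 to 90, the 12 being without pair 3. In SS-13BN/Mcw at 3 days 4 passed, against 5 in a fit of that group alone, 3 with arrays turned by dye and 0 to 2 when 1 pair was left out. Among 907 probes these settings called 30, 299 and 0 to 12. A fit of 1 group alone thus gave more calls of members in some groups and fewer in another. Such a fit keeps the group mean and takes the spread from that group instead of all 4. The members' SDs over pairs ran from 0.022 to 0.51 in SS overnight and from 0.32 to 0.76 in SS-13BN/Mcw overnight. The cause of the changes in calls was not tested for any of these settings.

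With 1 array of each pair turned by its dyes, which treats ratios as Cy5 over Cy3, signs reversed. In SS overnight Ggt1 was 0.00775 and Lrp2 0.234, in SS at 3 days Lrp2 was 0.498, in SS-13BN/Mcw overnight Ggt1 was 0.317 and Lrp2 0.213, and in SS-13BN/Mcw at 3 days Dpp4 was 0.0484 and Lrp2 0.185. Lrp2 over the 4 groups was 0.283. The strain difference was -0.309 for Ggt1 and -0.144 for Slc15a2 overnight, and -0.0911 for Dpp4 and -0.0537 for Mme at 3 days. The time difference of SS was -0.0989 for Anpep, 0.00352 for Dpp4 and 0.108 for Slc15a2, and that of SS-13BN/Mcw -0.352 for Ggt1 and -0.0274 for Lrp2. Because the dye part then takes the place of the pair's own value, these follow from how the alternative is built.

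The time difference of SS-13BN/Mcw, which passed for no member, also reversed with arrays scaled to 1 spread for Anpep (-0.0878) and Mme (-0.00676) and after quantile normalization for Anpep (-0.0234), Dpp4 (-0.000372) and Mme (-0.0404). Leaving out 1 pair, it ran from -0.147 to 0.612 for Anpep, -0.0479 to 0.272 for Dpp4, -0.115 to 0.263 for Mme, -0.0542 to 0.624 for Lrp2 and -0.299 to 0.161 for Slc15a2. That of SS ran from -0.155 to 0.11 for Mme, -0.304 to 0.838 for Lrp2 and -0.298 to 0.00743 for Slc15a2, and Lrp2 in SS at 3 days from -0.876 to 0.266. Member values as deposited, with probes averaged, with all 3 pairs required and with the replicate block kept sign and call in every comparison where they could be computed.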
